A study of Homo sapiens with 6 samples.

Results

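The genes described here are 34 components of the pathway that runs from phosphoinositide 3-kinase (PI3K) through the AKT kinases to the mTOR complexes. They were chosen by name, and all 34 were found among the 27576 genes of the deposited expression table. RNA was sequenced from Kasumi-1, an established human acute myeloid leukaemia line that carries the RUNX1-RUNX1T1 fusion. The 3 control libraries came from cells given 0.5% bovine serum albumin (BSA). The 3 IL-10 libraries came from cells given 10 ng/ml recombinant human interleukin-10 (rhIL-10). Both treatments lasted 72 h, in RPMI1640 medium with 20% fetal bovine serum, so both groups were exposed to the growth factors of serum throughout. A single line was used, and the labels do not say that the 3 replicates were separate cultures. The p-values rest on how far these 6 libraries scatter, and that scatter may be technical.

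As background, class I PI3Ks turn the membrane lipid PIP2 into PIP3 when a receptor is engaged, and PIP3 recruits AKT and its activating kinase PDK1. AKT inhibits the TSC complex, which releases the small GTPase RHEB to switch on mTORC1, the complex that drives protein synthesis through the S6 kinases and the inhibitors of eIF4E. AKT also phosphorylates GSK3 and the FOXO transcription factors, while lipid phosphatases such as SHIP1 and INPP4B remove the lipid signals. The pathway is active in many acute myeloid leukaemias, often downstream of KIT or FLT3. It is controlled mainly by phosphorylation, which RNA sequencing does not measure.

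In 1 IL-10 library, replicate 2, some close paralogues of the pathway stood on opposite sides of the other libraries. Others did not: AKT1 and AKT2 both stood above, and PIK3CA and PIK3CB both below. The coding sequences below are of pairs chosen because they split, and show how they differ. Each is a stretch of 40 codons across the junction of 2 exons, with the intron removed, written 5′ to 3′ from the GENCODE 29 transcripts (GRCh38). Capitals mark a G or C at the third position of a codon. The p70 S6 kinase genes RPS6KB1 (chr17:59934208-59934500, plus strand, exons 8 and 9) and RPS6KB2 (chr11:67432990-67433192, plus strand, exons 8 and 9) are compared first.
RPS6KB1: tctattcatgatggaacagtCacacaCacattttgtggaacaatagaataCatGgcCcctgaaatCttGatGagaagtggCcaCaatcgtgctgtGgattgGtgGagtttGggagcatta
RPS6KB2: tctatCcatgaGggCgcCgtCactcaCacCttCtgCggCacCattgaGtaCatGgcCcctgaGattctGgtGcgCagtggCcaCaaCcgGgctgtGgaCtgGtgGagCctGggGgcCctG
These stretches encode 37 of 40 identical residues but share 92 of 120 bases. In RPS6KB1, 14 of the 40 codons ended in G or C, against 32 of 40 in RPS6KB2, and over the whole coding sequences the shares were 40.2% and 74.9%. The glycogen synthase kinase genes GSK3B (chr3:119912711-119916063, minus strand, exons 5 and 6) and GSK3A (chr19:42234360-42234567, minus strand, exons 5 and 6) form the second pair.
GSK3B: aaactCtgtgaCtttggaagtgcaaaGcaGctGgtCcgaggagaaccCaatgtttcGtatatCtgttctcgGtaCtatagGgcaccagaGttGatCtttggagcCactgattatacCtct
GSK3A: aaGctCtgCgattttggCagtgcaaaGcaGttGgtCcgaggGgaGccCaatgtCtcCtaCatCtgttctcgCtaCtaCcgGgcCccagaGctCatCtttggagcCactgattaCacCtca
All 40 residues of this stretch are identical, while 102 of 120 bases are shared. Here 17 of 40 codons of GSK3B ended in G or C, against 26 of 40 in GSK3A, and over the whole coding sequences the shares were 42.5% and 71.8%.

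The libraries held 20750115 to 24222897 recovered reads. Values below are normalised read counts, that is, reads divided by 1 size factor per library. Most myeloid line markers were high in every library: MPO read 66945 to 160649, KIT 29296 to 54533, CD34 11415 to 14919 and RUNX1T1 3071 to 3878. Of the 9 listed, CD38 was the lowest, at 27.0 to 38.0. Of markers of other cells, CD3D stood at 1593 to 2560, PAX5 at 801 to 1327, SERPINA1 at 879 to 1664 and EPCAM at 1487 to 1942. Each is the most abundant of its list. CD79B stood near PAX5, at 707 to 1200, but CD3E read 31.8 to 65.5, MS4A1 0 to 1.86 and CDH1 0 to 2.98. KRT8 read 156 and 87.0 in the replicate 2 libraries of control and IL-10, against 4.28 to 11.2 in the other 4. Without SERPINA1, the 12 other liver markers, ALB, AFP and APOB among them, summed to 1188 and 554 in the replicate 2 libraries of control and IL-10, against 14.96 to 29.4 in the other 4 libraries. Their part in any pathway result was not tested. IL-10 replicate 2 stands apart from the other 5 libraries, high in GC-rich and low in AT-rich transcripts, so log2 fold changes are given without it too where it turns or clearly moves them. That fit keeps control replicate 2 unmatched, so genes that moved in both replicate 2 libraries can shift in it. For some of them, estimates from replicates 1 and 3 alone are added.

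No pathway gene differed detectably between IL-10 and control cells. With 3 libraries a group, limma on log2(value + 1) without a replicate block called 0 of the 34 genes at an adjusted p under 0.05. It called 0 of the 21946 genes tested (0.0%). At an unadjusted p under 0.05 it called 0 of the 34, against 344 of all genes (1.57%), and edgeR and DESeq2 on the recovered reads likewise gave 0 of 34 at either threshold. Over the whole table those 2 tools called 0 genes after adjustment, and 257 and 94 before it. In bulk RNA like this, fewer cells with a transcript and less of it per cell cannot be told apart. Adjusted p-values of the 34 ran from 0.982 to 0.992. The estimates leaned upward, with 22 genes higher and 12 lower with IL-10 (64.7% higher, against 52.0% of all genes tested). Their median log2 fold change was 0.10, where that of all genes was 0.02. Without IL-10 replicate 2 the lean was gone: 14 of the 32 genes still tested were higher and 18 lower, with a median of -0.0015, and 20 of the 32 had changed sign. Scaling the libraries to equal totals instead gave 17 higher and 17 lower, but there only 39.7% of all genes were higher, at a median of -0.08. A correction of each library for transcript GC content, chosen after seeing the data, also gave 17 and 17, with 48.4% of all genes higher.

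**Figure D1:**
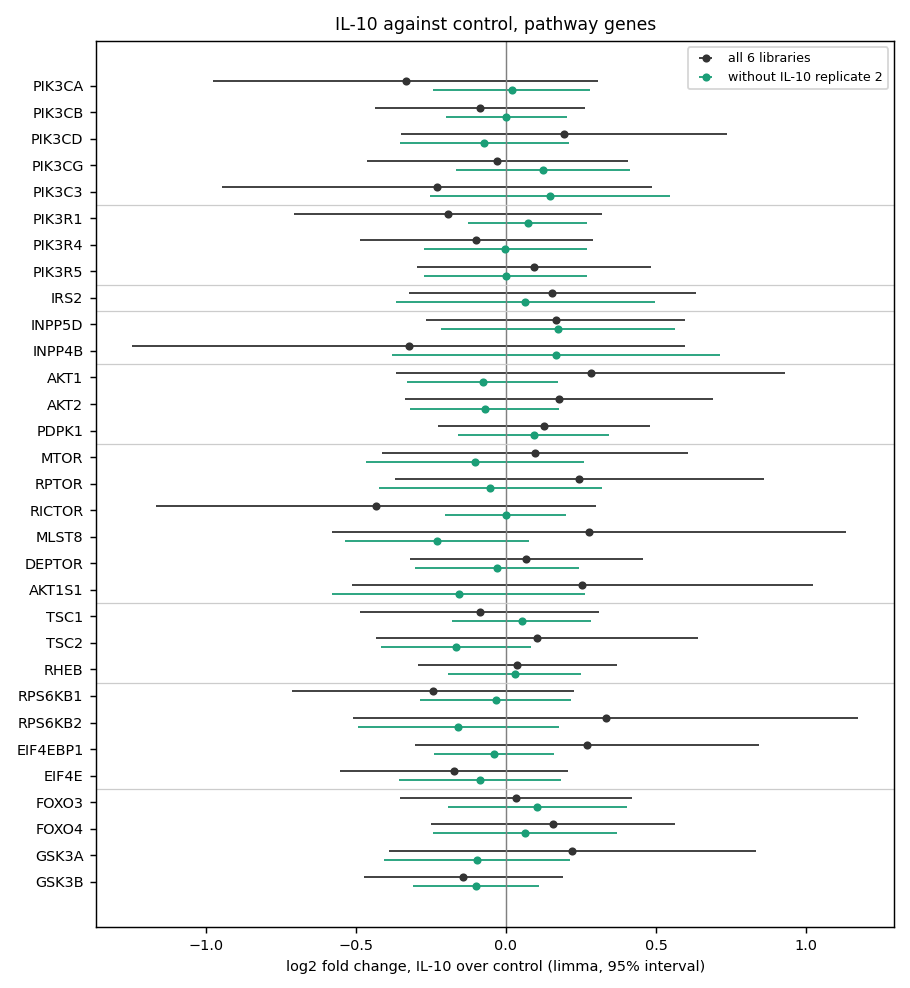
Log2 fold change of IL-10 over control with its 95% interval (limma) for the 31 pathway genes with a mean of at least 50, in all 6 libraries (black) and without IL-10 replicate 2 (green). Lines separate roles. All black and all green intervals include 0, and 30 of 31 green intervals lie within a 1.5-fold change either way, against 12 of 31 black ones.

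How large a change could have been missed depends on that library. The 31 genes with a mean of at least 50 normalised reads had 95% intervals that reached a median of 0.51 log2 units to either side in all 6 libraries and 0.27 without IL-10 replicate 2. With it, intervals of 12 of the 31 lay wholly within a 1.5-fold change in either direction. Without it, 30 of 31 did, the exception being INPP4B at -0.38 to 0.71. In replicates 1 and 3 alone, with the replicate number as a block, all 31 did, and log2 fold changes ran from -0.11 to 0.13. In that last fit 11 of 20308 genes passed the threshold (0.0542%), none of them of the pathway.

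The same-numbered libraries show how near control and IL-10 cells lay. Of the 31 genes, 0 differed by 1.5-fold or more in pair 1 or in pair 3, where log2 ratios of IL-10 over control ran from -0.20 to 0.18 and from -0.12 to 0.19. Of all 11604 genes at that level, 0.612% did so in pair 1 and 0.414% in pair 3. The median size of those ratios was 0.06 in pair 1 and 0.04 in pair 3, beside 0.07 and 0.06 over all those genes. Between differently numbered libraries, IL-10 replicate 2 left aside, the median size was 0.11 to 0.28. In pair 2 the ratios ran from -1.30 (RICTOR) to 1.05 (RPS6KB2), with a median size of 0.58 and 15 of 31 genes past 1.5-fold. Over all genes the median size in pair 2 was 0.44, and 35.2% were past 1.5-fold. By this measure pathway transcripts, like all genes, differed less between treatments in pairs 1 and 3 than between differently numbered libraries.

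**Figure D2:**
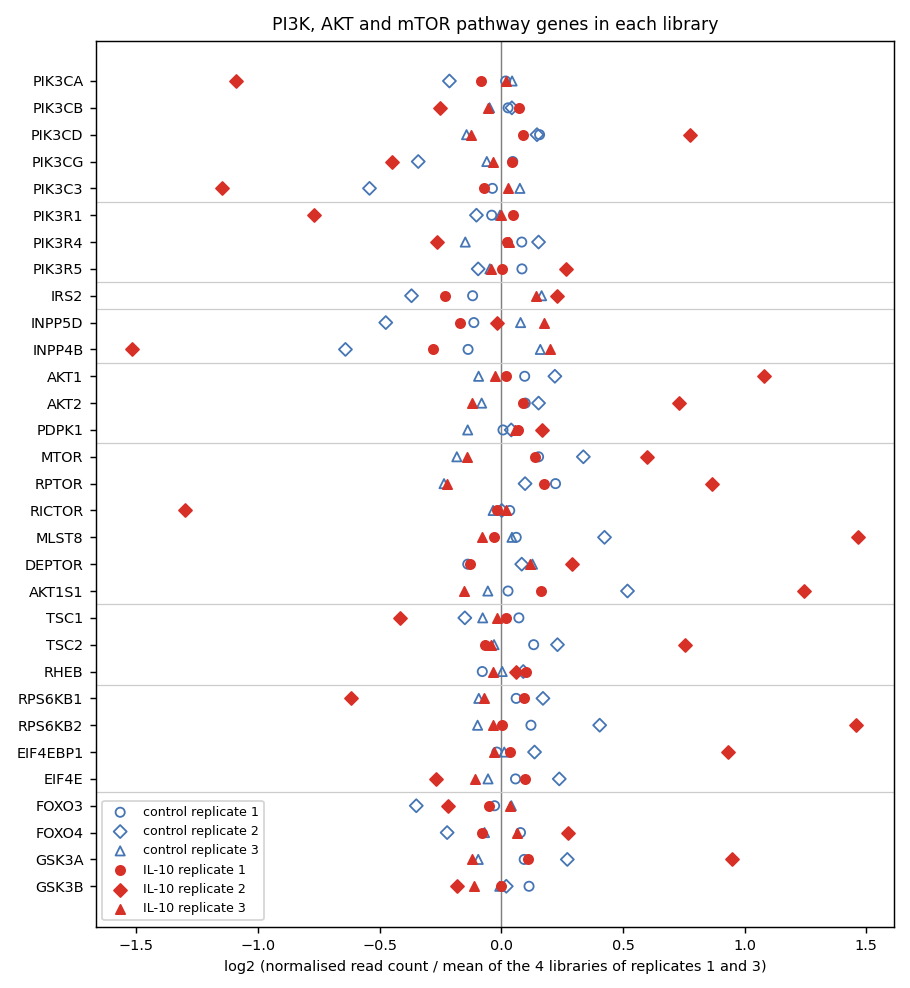
Log2 of each gene's normalised read count over its mean in the 4 libraries of replicates 1 and 3, for 31 pathway genes in all 6 libraries (open blue, control; filled red, IL-10; diamonds, replicate 2). Filled diamonds of IL-10 replicate 2 lie outside the range of the other 5 libraries for 28 of the genes, 16 above and 12 below, while circles and triangles cluster near 0.

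Of the catalytic subunits of PI3K, 1 gene was higher with IL-10 and 4 were lower, with a median log2 fold change of -0.09 (0.02 without IL-10 replicate 2). PIK3CA, which encodes the broadly expressed p110 alpha, read 1094, 932 and 1114 in the controls and 1019.6, 507 and 1095 in the IL-10 libraries (replicates 1 to 3 of each). A gene on the opposite strand, KCNMB3, overlaps 35.8% of its exon bases. The groups overlapped, and only the IL-10 replicate 2 value lay far from the rest, which left a log2 fold change of -0.33 with all libraries and 0.02 without that one. PIK3CB, encoding p110 beta, read 3498, 3536 and 3319 in control and 3609, 2879.6 and 3304 with IL-10, and it varied little. PIK3CD, encoding the leukocyte-enriched p110 delta, read 2991, 2968 and 2429 in control and 2851, 4596 and 2459 with IL-10. Its lone high value was IL-10 replicate 2, in the opposite direction to PIK3CA, and its log2 fold change was 0.19 with that library and -0.07 without it. PIK3CG encodes p110 gamma, the form coupled to G protein receptors, and it had the largest p of the 34. Located at chr7:106865278-106907145, plus strand (GRCh38), it read 1697, 1297 and 1577 in the controls and 1694, 1202 and 1606 in the IL-10 libraries (replicates 1 to 3 of each). The means were 1524 ± 206 with BSA and 1501 ± 262 with IL-10 (SD, n = 3). The limma log2 fold change was -0.03 with an SE of 0.19 (interval -0.46 to 0.41). The limma p was 0.886 and the adjusted p 0.992. Without IL-10 replicate 2 the estimate was 0.12, and in pairs 1 and 3 it was 0.01. PIK3C3, encoding the class III kinase VPS34 of autophagy and endosomes, read 1683, 1185 and 1819 in control and 1644, 779 and 1759 with IL-10. Its log2 fold change was -0.23, or 0.15 without IL-10 replicate 2 and -0.04 in pairs 1 and 3. PIK3CA, PIK3CG and PIK3C3 were lower in both replicate 2 libraries than in the other 4.

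The regulatory subunits hold and target the catalytic ones, and the 4 measured here split evenly, 2 higher and 2 lower. PIK3R1, encoding p85 alpha and its short forms, read 2334, 2234 and 2389.7 in control and 2478, 1406 and 2395 with IL-10. Apart from IL-10 replicate 2, the groups lay within a narrow band (log2 fold change -0.19, or 0.07 without it). PIK3R4, the partner of VPS34, stood at 888 ± 94.5 with BSA and 829 ± 93.4 with IL-10 (SD, n = 3), and PIK3R5, the p101 partner of p110 gamma, at 411 ± 26.9 with BSA and 441 ± 52.3 with IL-10 (SD, n = 3). PIK3R2, encoding p85 beta, was close to unmeasured at 0 to 3.53 normalised reads. In GENCODE 29, 87.2% of its exon bases are shared with a read-through gene on the same strand, AC007192.1, not analysed here, so its true level cannot be told from this table.

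Of the insulin receptor substrates, adaptors that bring PI3K to insulin and IGF receptors, IRS2 was the one well measured, at 333, 279 and 405 in control and 308, 423 and 399 with IL-10. The groups overlapped, with a log2 fold change of 0.15, or 0.06 without IL-10 replicate 2. IRS1 was at or near 0, at 0, 10.9 and 0 in control and 0, 5.88 and 2.85 with IL-10. A count of 0 allows up to 3 reads, and the highest values stood in the replicate 2 libraries, where the liver markers were also high. The part of those transcripts in the IRS1 values was not tested.

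Among the inositol lipid phosphatases, INPP5D, encoding the blood cell phosphatase SHIP1, read 6001, 4669 and 6855 in control and 5775, 6402 and 7333 with IL-10. The groups overlapped, and the log2 fold change was 0.17. It was close to 0 without control replicate 2, at 0.01, and in pairs 1 and 3, at 0.02. INPP4B, which removes phosphate from PI(3,4)P2, read 563, 397 and 691 in the controls and 509.8, 216 and 711 in the IL-10 libraries (replicates 1 to 3 of each). Its lowest values were both of replicate 2, and the interval of its log2 fold change of -0.32 was the widest of the 31 genes, at -1.24 to 0.60. Without IL-10 replicate 2, which leaves the low control replicate 2 unmatched, the estimate changed sign, to 0.17. In pairs 1 and 3 with the block it was -0.05 (interval -0.20 to 0.10).

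The AKT kinases and PDK1 had 3 of 3 genes higher with IL-10, at a median log2 fold change of 0.18 (-0.07 without IL-10 replicate 2). AKT1 read 2439.9, 2659 and 2139.7 in the controls and 2311, 4819 and 2243 in the IL-10 libraries (replicates 1 to 3 of each), and AKT2, the isoform best known for glucose handling, 4518, 4693 and 3990.2 in control and 4489.9, 7005 and 3887 with IL-10. For both, IL-10 replicates 1 and 3 sat among the controls and replicate 2 lay far above. Without that library the log2 fold changes were -0.08 and -0.07, the other sign. PDPK1, encoding PDK1, lies at chr16:2537964-2603188, plus strand, and read 615, 629 and 556 in the controls and 641, 688 and 636 in the IL-10 libraries (replicates 1 to 3 of each). It was the only one of the 34 whose groups did not overlap, where 5.87% of all genes tested showed no overlap in one direction or the other. The highest control, at 629.5, and the lowest IL-10 library, at 636, were close, and the log2 fold change was 0.13 (interval -0.23 to 0.48; 0.09 without IL-10 replicate 2). Genes on the opposite strand overlap 23.7% of its exon bases.

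Of the mTOR complex genes, 5 were higher with IL-10 and 1 lower, at a median log2 fold change of 0.17 (-0.08 without IL-10 replicate 2). RICTOR, the scaffold that defines mTORC2, had the smallest p of the 34. It lies at chr5:38937919-39074408, minus strand, and read 1516, 1482 and 1446 in the controls and 1461, 602 and 1499 in the IL-10 libraries (replicates 1 to 3 of each). All but 1 of the libraries lay between 1446 and 1516, and IL-10 replicate 2 was 2.46-fold below their mean. The group means were 1481 ± 35.0 with BSA and 1187 ± 507 with IL-10 (SD, n = 3). The limma log2 fold change was -0.43 with an SE of 0.32 (interval -1.17 to 0.30). The limma p was 0.213 and the adjusted p 0.982. Without that library it was -0.001 (-0.20 to 0.20), so the whole of the estimate rested on 1 library. RPTOR, the scaffold that defines mTORC1, read 5002, 4586 and 3641 in control and 4837, 7822 and 3670.0 with IL-10, with the same library 1.80-fold above the mean of the rest. Its log2 fold change was 0.24, or -0.05 without that library. MTOR itself, the kinase of both complexes, read 2969, 3373 and 2352 in control and 2940.2, 4046 and 2422 with IL-10. Its values in the replicate 2 libraries were the highest of each group. Its log2 fold change went from 0.10 to -0.10 without IL-10 replicate 2, and was 0.01 in pairs 1 and 3. MLST8, a subunit of both complexes, read 1133, 1457 and 1119 in control and 1064, 3001 and 1028 with IL-10. Of the 31 genes with a mean of at least 50 it stood highest in IL-10 replicate 2, 2.59-fold over the mean of the other 5, yet without that library its log2 fold change was -0.23 (-0.54 to 0.08). Its highest control was also replicate 2, and in pairs 1 and 3 with the block the estimate was -0.11 (-0.23 to 0.01). Of the 2 mTORC1 inhibitors, AKT1S1, encoding PRAS40, read 903, 1269 and 852 in control and 993, 2096 and 796 with IL-10. Its log2 fold change was 0.25, or -0.16 without IL-10 replicate 2 and 0.02 in pairs 1 and 3. The other inhibitor, DEPTOR, read 2013, 2348 and 2421 in control and 2026, 2706 and 2403 with IL-10 and had the smallest estimate of this group (0.07, or -0.03 without that library).

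Of the TSC complex and RHEB, 2 genes were higher with IL-10 and 1 lower, at a median log2 fold change of 0.04. TSC1 read 1595, 1367 and 1439 in control and 1537, 1135 and 1499.7 with IL-10. TSC2, the GTPase-activating partner of TSC1, read 1094, 1170.4 and 977 in control and 952, 1682 and 968 with IL-10. In IL-10 replicate 2 the 2 partners stood on opposite sides of the other libraries, TSC1 below and TSC2 above. The log2 fold changes were -0.09 and 0.10, or 0.05 and -0.17 without it. RHEB, the GTPase that they restrain and that activates mTORC1, had the narrowest spread of the pathway relative to its level, at 1936, 2176 and 2049 in control and 2194, 2129.8 and 1998 with IL-10, with IL-10 replicate 2 inside the range of the others.

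Downstream of mTORC1, 2 genes were higher with IL-10 and 2 lower, and the S6 kinase pair printed above went opposite ways in IL-10 replicate 2. RPS6KB1 read 2175, 2348 and 1956 in the controls and 2225, 1359.9 and 1987 in the IL-10 libraries (replicates 1 to 3 of each). In IL-10 replicate 2 it was 1.57-fold below the mean of the other 5 libraries. RPS6KB2 read 1149, 1397 and 987 in the controls and 1058, 2897 and 1031 in the IL-10 libraries (replicates 1 to 3 of each), and in that library it was 2.58-fold above. Without it the log2 fold changes were -0.03 and -0.16, both negative and both with intervals that include 0. In pairs 1 and 3 they were 0.03 and -0.03. EIF4EBP1, the translation repressor that mTORC1 inactivates, read 5704, 6351 and 5827 in control and 5923, 11008 and 5664 with IL-10. EIF4E, the cap-binding protein that it sequesters, read 1964, 2225 and 1816 in control and 2017, 1564 and 1749.5 with IL-10. Control and IL-10 overlapped for both genes, and the log2 fold changes of 0.27 and -0.17 became -0.04 and -0.09 without IL-10 replicate 2.

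Among the AKT substrates, 4 genes were higher with IL-10 and 1 lower. FOXO3 was, per kilobase too, the main FOXO transcript, at 1718, 1374 and 1802 in control and 1689.7, 1503 and 1797 with IL-10, and both replicate 2 values were its lowest. FOXO4 stood at 415 ± 43.2 with BSA and 463 ± 58.0 with IL-10 (SD, n = 3). The log2 fold changes of FOXO3 and FOXO4 were 0.03 and 0.16, or 0.10 and 0.06 without IL-10 replicate 2. FOXO1 was low, at 7.45, 4.97 and 9.79 in control and 8.55, 5.88 and 17.1 with IL-10, and its highest value was that of IL-10 replicate 3. Its log2 fold change was 0.38 (interval -0.69 to 1.44), or -0.01 without that library and 0.69 without IL-10 replicate 2. GSK3A read 974, 1101 and 854 in the controls and 983, 1759.5 and 839 in the IL-10 libraries (replicates 1 to 3 of each), with IL-10 replicate 2 lying 1.85-fold above the mean of the others. The log2 fold change was 0.22, or -0.10 without that library. On the same strand a read-through gene, AC006486.1, overlaps 11.6% of its exon bases. GSK3B, its paralogue, read 2292, 2148 and 2109 in the controls and 2114, 1866 and 1959 in the IL-10 libraries (replicates 1 to 3 of each), and there the same library was the lowest, 1.14-fold below the mean of the others. The log2 fold change of GSK3B was -0.14, or -0.10 without that library. In pairs 1 and 3 with the block its log2 fold change was -0.11 (interval -0.21 to -0.01). The limma p was 0.0309 and the adjusted p 0.999, so it did not pass.

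Across the 31 better measured genes, the position of IL-10 replicate 2 followed the GC content of the transcript. Of the 13 genes with at least 55% GC (PIK3CD, PIK3R5, IRS2, INPP5D, AKT1, AKT2, RPTOR, MLST8, AKT1S1, TSC2, RPS6KB2, EIF4EBP1 and FOXO4), 13 were above the mean of the other 5 libraries, 12 of them above every one. Of the 11 with at most 45% (PIK3CA, PIK3CB, PIK3CG, PIK3C3, PIK3R1, PIK3R4, INPP4B, RICTOR, RPS6KB1, EIF4E and GSK3B), 11 were below every other library. The 7 in between (PDPK1, MTOR, DEPTOR, TSC1, RHEB, FOXO3 and GSK3A) had 5 above that mean and 2 below. Over the 31 genes Spearman's rho between GC content and the deviation of this library was 0.928, given as a description of genes that share the library. All genes with a mean of at least 50 did the same: 91.2% of those with at least 55% GC and 14.8% of those with at most 45% were above, with a rho of 0.771 over 11575 genes. For the other 5 libraries, each set against the remaining 4 of those 5, rho over the 31 pathway genes was -0.40 to 0.46, the highest in control replicate 2.

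**Figure D3:**
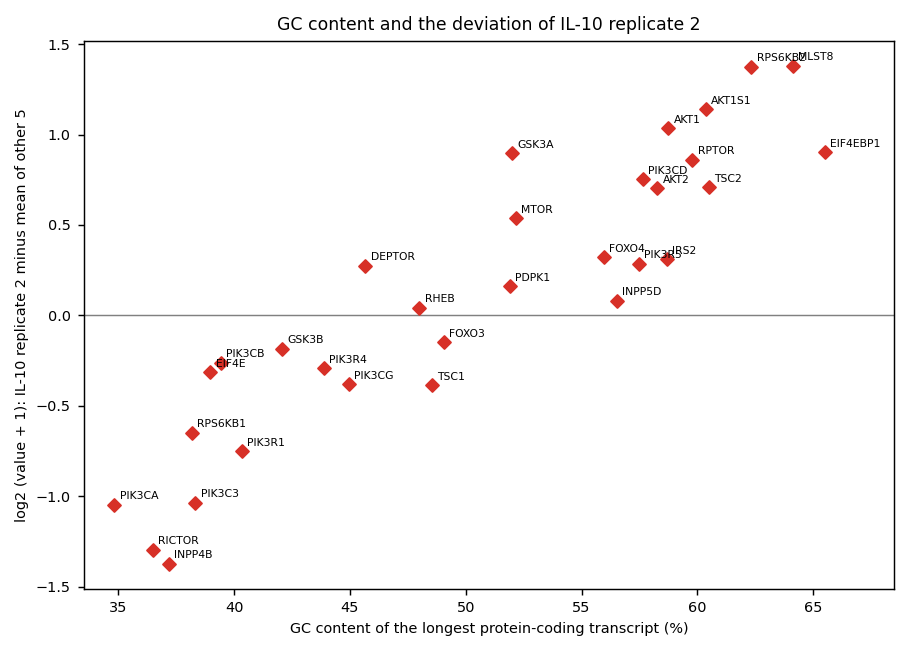
GC content of the longest protein-coding transcript (horizontal axis, %) against the log2 deviation of IL-10 replicate 2 from the mean of the other 5 libraries (vertical axis), for 31 pathway genes. The points climb from RICTOR and INPP4B at lower left to MLST8 and RPS6KB2 at upper right, and the 11 genes at or below 45% GC all lie below 0.

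The direction of each estimate followed the same division. With all 6 libraries, 13 of 13 GC-rich genes had a positive and 11 of 11 AT-rich genes a negative log2 fold change, at medians of 0.19 and -0.19. Without IL-10 replicate 2, 3 of 13 and 5 of 11 did, at medians of -0.07 and 0.0016. After the GC correction it was 8 of 13 and 9 of 11, at medians of 0.02 and -0.05, and 0 genes of the pathway or of the table passed. Pathway genes were displaced about as often as others: 16 of the 31 (51.6%) lay above all other libraries in IL-10 replicate 2, where 46.0% of all 11604 such genes did, and 12 of 31 (38.7%) lay below, against 33.7%. In both replicate 2 libraries alike, 9 of 31 were above the other 4, against 28.8%, and 7 of 31 below, against 20.8%.

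Levels of different genes were compared per kilobase of the longest coding transcript, over all 6 libraries. EIF4EBP1 was far above the rest, at 6614 ± 2061 normalised reads per kilobase (SD, n = 6). It was followed by INPP5D at 1170.3 ± 176, RHEB at 1003 ± 49.7, DEPTOR at 903 ± 103 and AKT2 at 899 ± 216, whose spreads overlap. At the low end stood PDPK1 at 86.7 ± 5.91, INPP4B at 58.3 ± 21.2 and IRS2 at 44.0 ± 7.26, with FOXO1, IRS1 and PIK3R2 at 1.56, 0.338 and 0.304. Per kilobase, the repressor EIF4EBP1 exceeded its target EIF4E 32.3-fold to 36.6-fold in 5 libraries and 79.5-fold in IL-10 replicate 2. The size of these ratios rests on the transcript lengths used, 1020 bases for EIF4EBP1 and 11523 for EIF4E. Before division by length, the means over all 6 libraries were 6746 and 1889. Which transcript of each gene the cells made was not tested.

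**Figure D4:**
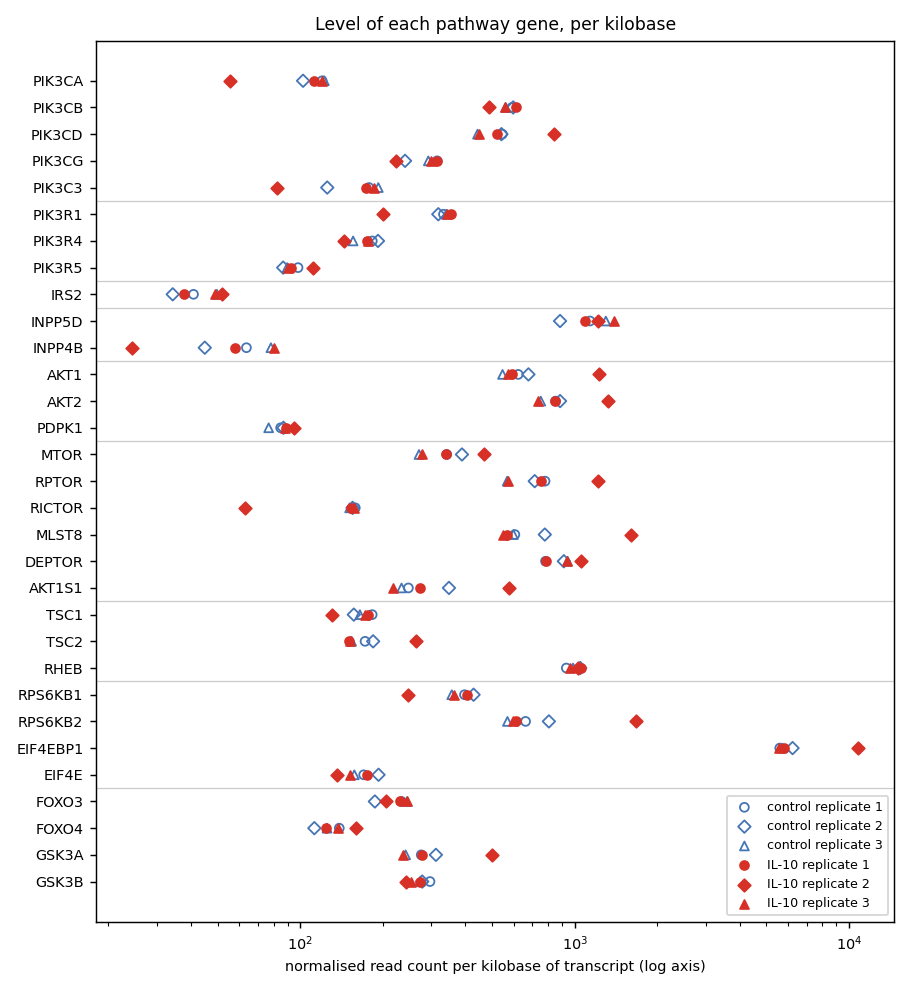
Normalised read count per kilobase of the longest coding transcript (log axis) of 31 pathway genes in each of the 6 libraries, with symbols as in the plot of values by library. EIF4EBP1 lies highest and IRS2 and INPP4B lowest, and for 28 of the genes the outermost point on one side is IL-10 replicate 2.

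Among paralogues and partners, p110 beta and p110 delta were the leading class I catalytic transcripts. PIK3CB exceeded PIK3CA by 5.54-fold per kilobase (4.58 to 8.73 over the 6 libraries) and PIK3CD exceeded PIK3CG by 1.95-fold (1.501 to 3.75). PIK3CB over PIK3CD was 1.08 to 1.27 in 5 libraries and 0.580 in IL-10 replicate 2, and its order also turned with the exon lengths used. AKT2 over AKT1 was 1.30, higher in 6 of 6 libraries (1.07 to 1.44). FOXO3 over FOXO4 was 1.69, again in 6 of 6. The mTORC1 scaffold RPTOR exceeded the mTORC2 scaffold RICTOR 3.65-fold to 4.93-fold in 5 libraries and 19.4-fold in IL-10 replicate 2, and RPS6KB2 exceeded RPS6KB1 1.503-fold to 1.88-fold in the 5 and 6.74-fold in that library. That of INPP5D to INPP4B was 16.6 to 19.7 in the 5 and 49.6 in IL-10 replicate 2. The order within the RPS6KB, GSK3 and TSC pairs depended on which transcript lengths were used. The change of a ratio between libraries does not depend on length.

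The wider pathway was covered by 7 further lists. Of their 102 tested genes, 0 passed the threshold, 71 were higher and 31 lower, where 52.0% of all genes tested were higher. The median log2 fold change was 0.07 (0.03 without IL-10 replicate 2, and -0.0065 in replicates 1 and 3 alone). None of the lists had a member at an unadjusted p under 0.05. Among 12 other PI3K subunits and lipid phosphatases (median 0.07, or 0.04 without IL-10 replicate 2), INPPL1, encoding the phosphatase SHIP2, read 6952, 7343 and 6708 in control and 6519, 10829 and 6682 with IL-10. The 10 AKT, SGK and phosphatase genes had a median of 0.04 (0.09 without that library, and -0.0094 in replicates 1 and 3 alone). PPP2R1A, the scaffold of the phosphatase PP2A, stood at 4151 ± 277 with BSA and 5194 ± 2282 with IL-10 (SD, n = 3). PHLPP1, a phosphatase of AKT, stood at 2643 ± 277 with BSA and 3082 ± 541 with IL-10 (SD, n = 3). The 11 further mTOR and TSC genes, at a median of 0.16 that turned to -0.07 without IL-10 replicate 2, included STK11, encoding the AMPK-activating kinase LKB1, at 3675, 3972 and 3505 in control and 3623, 8278 and 3665 with IL-10. MAPKAP1, encoding the mTORC2 subunit SIN1, stood at 2580.0 ± 321 with BSA and 2867 ± 869.8 with IL-10 (SD, n = 3).

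The 28 genes of lysosomal amino-acid sensing, which bring mTORC1 to the lysosome, had a median log2 fold change of 0.10, and of 0.0044 without IL-10 replicate 2. Of these SEC13 and SEH1L, both of the GATOR2 complex and the nuclear pore, stood at 2497 ± 349 with BSA and 3128 ± 1193 with IL-10 (SD, n = 3) and at 2311 ± 337 with BSA and 2114 ± 129 with IL-10 (SD, n = 3). The 14 translation effectors had a median of 0.13, or 0.04 without that library. They include EEF2, the elongation factor, at 118767, 112722 and 126293 in control and 117185, 214081 and 127457 with IL-10, and RPS6, the ribosomal protein that S6 kinases phosphorylate, at 26369, 27585 and 29769 in control and 27926, 30179.7 and 31459 with IL-10. RPS6 kept within its range in IL-10 replicate 2 while EEF2 was 1.78-fold above the mean of the other 5. The 12 upstream receptor tyrosine kinases had a median of -0.08, or -0.0073 without it. KIT, the stem cell factor receptor of this line, read 54533, 38003 and 41215 in the controls and 53136, 29296 and 41083 in the IL-10 libraries (replicates 1 to 3 of each), and IGF1R 2196 ± 297 with BSA and 2282 ± 36.1 with IL-10 (SD, n = 3). For KIT each control library lay near its same-numbered IL-10 library in replicates 1 and 3. The 19 FOXO target genes had a median of 0.04, or 0.20 without IL-10 replicate 2. In replicates 1 and 3 alone the median was -0.0004. Leaving out only the IL-10 library keeps control replicate 2, and 12 of the 19 were lower in both replicate 2 libraries than in the other 4. CAT, encoding catalase, stood at 3654 ± 311 with BSA and 3755 ± 266 with IL-10 (SD, n = 3). CITED2, a transcriptional coregulator, stood at 3196 ± 284 with BSA and 3582 ± 631 with IL-10 (SD, n = 3).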

How the data were processed

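The 3 control and 3 IL-10 libraries of Kasumi-1 were made from Trizol RNA with an Illumina TruSeq kit, per the labels' protocols. The authors deposited 1 table named as FPKM whose values are a normalised signal: the values themselves are read counts that were divided by a size factor of the library. In each library 100% were whole multiples of 1 step within 0.01 read. The step of control replicate 2, 0.994, is too near 1 for an automatic check, so edgeR was also run on the other 5. The submitters' processing notes name edgeR 3.18.1, GRCh38 and hg38, with no role. How reads were aligned and counted, and whether strand was used, is not given in the sources used here, so reads of overlapping genes cannot be told apart.

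Genes were named for 26883 of 27576 identifiers, and 27052 matched GENCODE 29 (GRCh38), which gave coordinates, lengths and GC content. The design assumed FPKM. Its two-sided test was kept: limma 3.58.1 under R 4.3.3, with the trend option, on log2(value + 1). That test held no replicate block, so p-values and intervals given without mention of a block are unpaired. The 21946 genes that reached 1 in at least 3 libraries were tested, with Benjamini-Hochberg adjustment over all of them. Such fold changes understate those of low genes. Counts recovered from the values were tested with DESeq2 1.42.0 and the quasi-likelihood test of edgeR 4.0.16. Only the limma fit was tried on simulated counts, which held no library shifted by GC content and no pairing of replicates. A correction for GC content (loess of span 0.3 per library) was added after seeing the data.

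Replicate numbers were checked for pairing before calls were compared. Over 11604 genes (mean of 50 or more), same-numbered libraries deviated together from their groups, with correlations of 0.356, 0.602 and 0.726, all above 0.1. They were therefore treated as pairs, on the values alone, in the pair ratios and in the fits with a replicate block. The main fit stayed unpaired. Of the 6 differently numbered combinations 2 also exceeded 0.1, at 0.203 and 0.167.

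The genes and lists were chosen with earlier results of these data known. All 34 genes are named, with full statistics at the smallest and largest p and for an unadjusted p under 0.05. Of each further list the 2 genes of highest mean are named, except 1 gene that is not reported here, and of each marker list the most abundant one, with other markers named as examples after their values were seen. Exact 0 counts entered the fits as 0, and 3 reads is the number that such a count is taken to allow.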

Additional observations from a re-analysis of the deposited data

How the results depend on the processing

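No pathway gene passed the threshold in any of the 21 alternatives, whose smallest adjusted p was 0.799, from limma without IL-10 replicate 3. Estimates changed sign in 99 of 700 comparisons of a gene with an alternative, 20 of 32 genes without IL-10 replicate 2 and 19 of 32 in replicates 1 and 3 alone. Only INPP5D, PDPK1, RICTOR and GSK3B never did, of which INPP5D came to 0.0016 with the GC correction and RICTOR to -0.001 without IL-10 replicate 2. The median log2 fold change of the pathway genes ran from -0.0015 to 0.14 when each library was left out in turn. It was 0.05 with quantile normalisation and 0.10 with edgeR, and below 0 with equal totals (-0.0013), replicates 1 and 3 alone (-0.0056) or the GC correction (-0.00038). With the replicate block, which the pairing of the numbers allows, limma called 0 genes of the table (512 at an unadjusted p under 0.05, against 344 without it) and 0 of the pathway, so the block changed no call. In replicates 1 and 3 with the block 11 genes of the table passed, against 0 with all libraries. The cause was not tested. The correlation of GC content with the deviation of IL-10 replicate 2 was 0.928 with the union of exons and 0.946 with the principal transcript. It was lower, at 0.823, with the third codon position alone. The ratio of RPS6KB2 to RPS6KB1 changed order with the union of exons (log2 -0.20 against 1.06), as did that of TSC1 to TSC2 (0.50 against -0.11). Low counts limit IRS1 and FOXO1, and PIK3R2 too, whose counts may also depend on how reads shared with the read-through gene were assigned, which was not tested. For the other genes the spread between libraries sets the precision.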

Other observations

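Most of the listed FOXO target genes, which AKT restrains through the FOXO factors, were lower in the replicate 2 libraries of both groups. Of the 16 with a mean of at least 50, 11 were lower in both of those libraries than in the other 4 (68.8%, against 20.8% of all genes at that level), and 0 were higher in both (against 28.8%). In IL-10 replicate 2 taken alone, 7 of the 16 were below all other libraries (43.8%, against 33.7% of all such genes). Above them were 3 (18.8%, against 46.0%). The 11 are CDKN1B, BCL6, TXNIP, CCNG2, INSR, SESN1, SESN3, PIK3IP1, BNIP3, CDKN1A and TRIB1. SESN1, SESN3, PIK3IP1 and INSR also belong to other lists above. Named after their values were seen, BNIP3, a mitochondrial autophagy receptor also known as a hypoxia-response gene, read 2025, 309 and 3577 in control and 2019, 279 and 3535 with IL-10. SESN3, a stress-induced inhibitor of mTORC1, read 2234, 1479.7 and 2506 in control and 2181, 865 and 2475 with IL-10. TXNIP, a thioredoxin-binding protein and restrainer of glucose uptake, read 3297, 2027 and 4227 in control and 3347, 2142 and 4161 with IL-10. For BNIP3 and TXNIP control and IL-10 libraries of the same number lay close together in all 3 pairs, and the treatment estimates were -0.06 and 0.03 log2 units. Without IL-10 replicate 2, which leaves the low control replicate 2 unmatched, they were 1.03 and 0.29. Of the FOXO genes, FOXO3 and the low FOXO1 were also lowest in the replicate 2 libraries. FOXO4 was lowest in control replicate 2, at 372, but highest in IL-10 replicate 2, at 525. The liver markers moved with the same 2 libraries, and their part in these values was not tested. Transcript GC content was 51.4% for BNIP3, 37.1% for SESN3 and 43.9% for TXNIP, and its part was not tested either.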
